A study of Mus musculus with 6 samples.

Results

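The BCL2 family of apoptosis regulators was followed in 4T1 GPD2 KO cells and 4T1 WT cells through 10 genes taken by name: the pro-survival genes Bcl2, Bcl2l1 and Mcl1, the effector genes Bax and Bak1, and the BH3-only genes Bid, Bad, Bbc3, Pmaip1 and Bcl2l11. The count table held 9 of the 10 among its 12534 genes; Pmaip1 was not analysed here. All 9 passed the filter on low counts, which left 12106 genes for testing. Both groups came from 4T1, a mouse mammary carcinoma cell line of BALB/c origin grown in RPMI medium, and each group had 3 libraries of polyA-selected RNA. The KO libraries were labelled Gpd2 -/- and came from cells edited with a vector carrying Cas9 and a guide RNA against Gpd2, the gene of the mitochondrial glycerol-3-phosphate dehydrogenase. The sample labels name the guide and Cas9 vector for the WT libraries as well, whereas the methods of the study describe transfection and selection for the KO cells only. The study names 1 KO line, GPD2 KO (1), for its RNA-seq, so the knockout and the history of that line cannot be told apart. The labels do not say whether replicates were separate cultures; the study's general statement on statistics describes its samples as biologically independent unless stated otherwise, without naming the RNA-seq. The p-values measure the spread between these libraries.

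BCL2 family proteins decide whether the outer mitochondrial membrane stays intact. BCL2, BCL-XL (from Bcl2l1) and MCL1 hold the membrane closed, BAX and BAK open it and release cytochrome c, and BH3-only proteins such as BID, BAD, PUMA (from Bbc3) and BIM (from Bcl2l11) either block the pro-survival proteins or activate BAX and BAK. Many of these proteins are also controlled after translation by cleavage, phosphorylation and degradation, and none of that is read by RNA.

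The sequence feature that the family members share is the BH3 region, a short helix that BH3-only and effector proteins insert into a groove of the pro-survival proteins. The coding bases of this region are shown for the 9 members because they are the one stretch common to all 3 classes. A pattern of a leucine, any 3 residues, a glycine, alanine or serine, then an aspartate followed by aspartate, glutamate or glycine was searched in the longest RefSeq-linked coding sequence of each gene and was found once in each of the 9. The stretches below hold 15 codons (45 bases) each from the reference transcripts of GENCODE vM21, not from 4T1 reads, with the codons of the leucine, of the small residue and of the aspartate in capitals.
Bcl2: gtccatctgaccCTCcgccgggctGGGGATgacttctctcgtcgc
Bcl2l1: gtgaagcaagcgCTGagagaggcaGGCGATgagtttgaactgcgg
Mcl1: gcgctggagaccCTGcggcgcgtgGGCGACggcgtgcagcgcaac
Bax: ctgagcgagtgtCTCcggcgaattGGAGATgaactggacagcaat
Bak1: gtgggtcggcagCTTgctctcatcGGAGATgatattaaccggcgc
Bid: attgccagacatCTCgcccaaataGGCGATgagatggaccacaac
Bad: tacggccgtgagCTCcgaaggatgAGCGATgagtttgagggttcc
Bbc3: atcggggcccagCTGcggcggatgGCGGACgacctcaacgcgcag
Bcl2l11: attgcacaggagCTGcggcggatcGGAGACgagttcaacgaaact
None of the 9 stretches was interrupted by an intron. In GRCm38 they lie at chr1:106712569-106712613 (Bcl2), chr2:152829691-152829735 (Bcl2l1), chr3:95659424-95659468 (Mcl1), chr7:45465991-45466035 (Bax), chr17:27022525-27022569 (Bak1), chr6:120897283-120897327 (Bid), chr19:6950780-6950824 (Bad), chr7:16313761-16313805 (Bbc3) and chr2:128147138-128147182 (Bcl2l11). Those of Mcl1, Bad, Bbc3 and Bcl2l11 are on the plus strand and the others on the minus strand. The stretch is in exon 1 of the Bcl2 and Mcl1 transcripts, in exon 2 for Bcl2l1, in exon 3 for Bax, Bad, Bbc3 and Bcl2l11, and in exon 4 for Bak1 and Bid. Between any pair of members 16 to 28 of the 45 bases were identical, with the most between Bbc3 and Bcl2l11 and the fewest between Bcl2 and Bid.

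Gpd2 was read first as a check of the labels. Its level in TPM (the share of a library's transcripts, scaled by transcript length) was 51.6, 52.1 and 52.0 in WT and 9.90, 9.95 and 9.88 in KO, a log2 fold change of -2.39 (SE 0.032) with an adjusted p of 5.12e-11 in the edgeR quasi-likelihood test. The groups were far apart, and transcripts of the edited gene were still counted in the KO libraries. Total counts ran from 51186527 to 59846170 per library, and the 9 family members had between 555 and 14000 counts in any library. The KO and WT libraries differed widely: 8085 of 12106 genes (66.8%) passed an adjusted p of 0.05, of which 4051 (33.5%) were higher and 4034 (33.3%) lower in KO, and in 71.1% the groups did not overlap in CPM (counts scaled to library size). Of the keratins that mark epithelial cells, Krt7, Krt8 and Krt18 (3 of 10 listed markers were in the table) summed to 1709 to 1804 TPM in WT and 986.7 to 1034 TPM in KO. Listed leukocyte markers (4 of 10 in the table) summed to 23.8 to 27.0 TPM in WT and 17.1 to 18.6 in KO, fibroblast markers (3 of 8) to 39.8 to 40.9 and 19.3 to 23.6, and the single endothelial marker Cdh5 to 11.1 to 11.6 and 1.68 to 2.11. The keratins, Cd68, Lyz2, Pdgfra, Col1a1 and Cdh5 were lower and Cd79a and Pdgfrb higher in KO by the quasi-likelihood test, Itgam did not pass it, the call of Cd79a was lost in DESeq2 (adjusted p = 0.105) and in the quasi-likelihood test without WT replicate 2 (0.0658) or KO replicate 3 (0.0649), and their part in the family's differences was not tested.

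Of the 9 family members, 7 passed the adjusted p of 0.05, which is 77.8% beside 66.8% of all tested genes and thus near the background. Bax, Bak1, Bbc3, Bid, Bcl2l1 and Mcl1 were higher in KO (6 of 9), Bcl2 was lower (1 of 9), and Bad and Bcl2l11 did not pass. Over all tested genes, 33.5% were higher and 33.3% lower. The groups did not overlap in CPM for 7 of the 9 members, beside 71.1% of all tested genes. The median log2 fold change of the 9 was 0.38, beside -0.00081 over all tested genes. All changes were modest: Bax, Bak1 and Bbc3 reached a fold of 1.5, which 21.4% of tested genes did, and 0 members met the selection used in the study, a fold of at least 2 with an unadjusted exact test p under 0.05, which 8.64% of tested genes met. Without the fold, 6 members passed that exact test (64.6% of all tested genes did), 7 had an unadjusted quasi-likelihood p under 0.05 (69.7%) and 7 passed an adjusted p of 0.05 in DESeq2 (66.5%), again near the background.

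**Figure D1:**
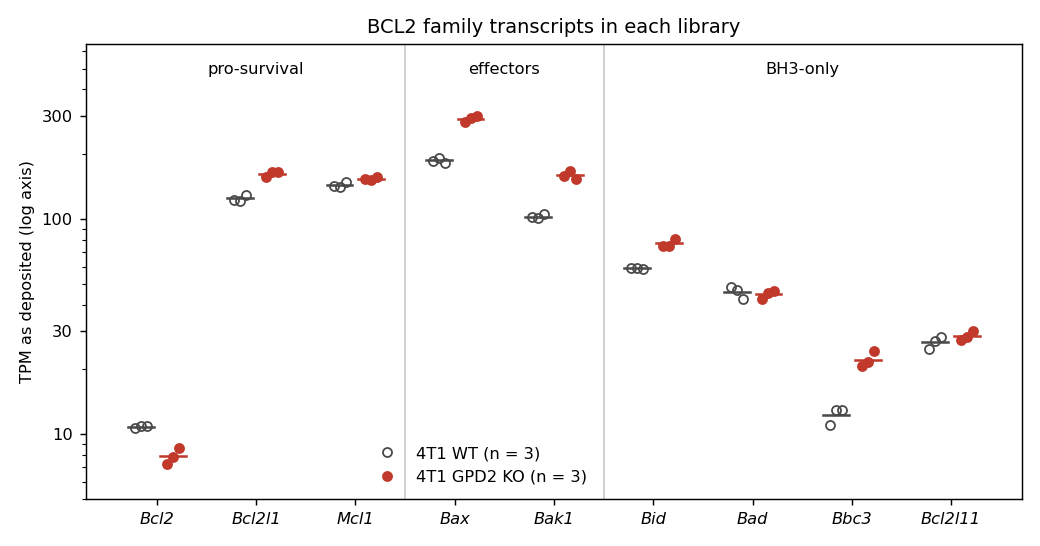
Level of the 9 measured BCL2 family members in each library, in TPM on a log axis, with open circles for WT, filled circles for GPD2 KO and lines at the group means (n = 3 each). Bax was the most abundant member in both groups, Bcl2 the least, and both effector genes were higher in all 3 KO libraries.

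The pro-survival genes moved in different directions. Bcl2 (chr1:106538176-106714290, minus strand), the founding pro-survival member, stood at 10.7, 10.9 and 10.9 TPM in WT and at 7.29, 7.85 and 8.60 TPM in KO. All KO libraries were below all WT libraries. The log2 fold change was -0.53 (SE 0.054, 95% interval -0.66 to -0.41) with an adjusted p of 1.93e-05 by the quasi-likelihood test, a level in KO of 0.691 times that in WT.

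Bcl2l1 (chr2:152758732-152833803, minus strand), which encodes BCL-XL, had 123, 121 and 130 TPM in WT and 157, 165 and 165 TPM in KO. The groups did not overlap, and the gene rose by a log2 fold change of 0.38 (SE 0.046, 95% interval 0.28 to 0.49, adjusted p = 5.80e-05, quasi-likelihood test), or 1.304-fold. The table joined 4 RefSeq transcripts in its 1 value for the gene, so the pro-survival and the short pro-apoptotic splice forms of Bcl2l1 were not separated.

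Mcl1 (chr3:95656944-95663179, plus strand) encodes a short-lived pro-survival protein. Its level was 142, 141 and 148 TPM in WT and 153, 152 and 156 TPM in KO, so the highest WT library was just below the lowest KO library. The log2 fold change was 0.10 (SE 0.037, 95% interval 0.015 to 0.18), and the adjusted p was 0.0393 by the quasi-likelihood test. This call was the least certain of the family. It was lost without WT replicate 1 (adjusted p = 0.111), WT replicate 2 (0.113), KO replicate 1 (0.0645), KO replicate 2 (0.0686) or KO replicate 3 (0.127) in the same quasi-likelihood test, and with libraries scaled by total count only (0.0572). The adjusted p ranged from 0.0177 to 0.127 over all alternatives, with a positive fold change in each.

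The effector genes rose by nearly the same amount. Bax (chr7:45461695-45466903, minus strand), whose protein moves from the cytosol to mitochondria to form pores, had 187, 191 and 183 TPM in WT and 281, 295 and 301 TPM in KO. The lowest KO library was far above the highest WT library. Its log2 fold change was 0.65 (SE 0.041, 95% interval 0.56 to 0.74; adjusted p = 9.17e-07, quasi-likelihood test), or 1.57-fold.

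Bak1 (chr17:27019812-27028627, minus strand), whose protein resides in the outer mitochondrial membrane, had 102, 100.6 and 105 TPM in WT and 158, 167 and 154 TPM in KO. The groups were again separate, with a log2 fold change of 0.64 (SE 0.046, 95% interval 0.54 to 0.74) and an adjusted p of 2.01e-06 by the quasi-likelihood test, or 1.56-fold. The intervals of Bax and Bak1 overlapped almost wholly, and the ratio of Bax to Bak1 TPM was 1.82 ± 0.085 (SD, n = 3) in WT and 1.83 ± 0.11 in KO. Of the tested genes, 92.1% had a lower log2 fold change than Bax and 91.9% a lower one than Bak1.

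The BH3-only genes divided into Bbc3 and Bid, which rose, and Bad and Bcl2l11, which did not pass the test. Bbc3 (chr7:16308398-16318334, plus strand) encodes PUMA, a BH3-only protein known as a p53 target that binds all the pro-survival proteins. It was the lowest of the measured BH3-only members in both groups, at 11.0, 13.01 and 12.9 TPM in WT and 20.7, 21.6 and 24.3 TPM in KO. Every KO library was above every WT library. Bbc3 had the largest fold change of the 9 members, 0.85 on the log2 scale (SE 0.087, 95% interval 0.66 to 1.05; adjusted p = 1.96e-05, quasi-likelihood test), or 1.81-fold, and 95.01% of tested genes had a lower one.

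Bid (chr6:120893119-120917062, minus strand) encodes a protein that is cleaved by caspase-8 and links death receptors to mitochondria. It was the highest of the measured BH3-only members, at 59.0, 59.4 and 58.5 TPM in WT and 75.2, 75.2 and 80.6 TPM in KO. WT libraries were tightly grouped and lay below all KO libraries. The log2 fold change was 0.39 (SE 0.042; adjusted p = 3.05e-05, quasi-likelihood test), or 1.31-fold.

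Bad (chr19:6941861-6951905, plus strand) encodes a BH3-only protein that is held inactive by phosphorylation, among others by Akt. It had 48.4, 46.5 and 42.3 TPM in WT and 42.4, 45.3 and 46.0 TPM in KO, with overlapping groups. The log2 fold change was -0.06 (SE 0.054, adjusted p = 0.377, quasi-likelihood test), and its 95% interval of -0.18 to 0.06 lay below that of Bid (0.29 to 0.48).

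Bcl2l11 (chr2:128126038-128162547, plus strand) encodes BIM, known as a target of FOXO factors. Its levels of 24.8, 27.1 and 28.4 TPM in WT and 27.4, 28.3 and 30.1 TPM in KO overlapped. The log2 fold change was 0.10 (SE 0.058, 95% interval -0.03 to 0.23) with an adjusted p of 0.146 by the quasi-likelihood test. Its estimate was close to that of Mcl1, which passed, and whether they differ was not tested.

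**Figure D2:**
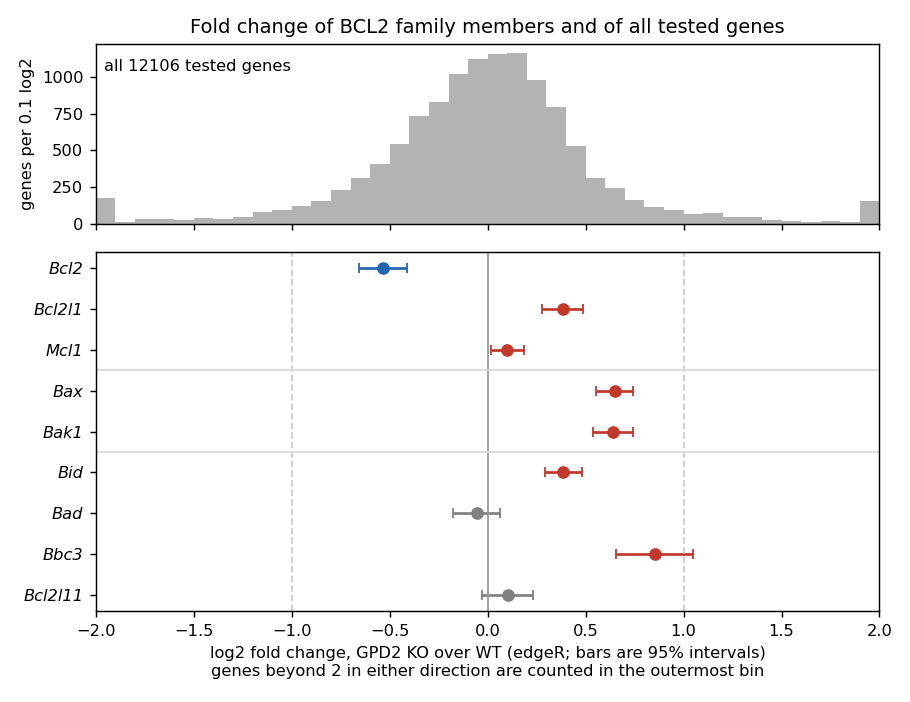
Histogram of the log2 fold change (GPD2 KO over WT) of all 12106 tested genes above the 9 family members, whose points carry 95% intervals from the edgeR fit with 3 libraries a group. Red members were higher, blue lower and grey did not pass an adjusted p of 0.05; no point lies beyond the dashed lines at a 2-fold change, and the interval of Bbc3 crosses one of them.

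Exons of some members share bases with another gene, and the labels name a strand-specific library kit but whether reads were counted by strand was not stated. In GENCODE vM21 the overlap took 25.5% of the exonic bases of Bak1 (with Ggnbp1), 20.5% of Bad (with Gpr137), 17.7% of Bid (with Bcl2l13) and 6.09% of Bcl2 (with D630008O14Rik), all on the opposite strand. For Bax it took 12.2% (with Gm45808, on the same strand), and for Bcl2l1, Mcl1, Bbc3 and Bcl2l11 there was none. Gpr137 rose from 11.55 ± 1.05 TPM in WT to 14.7 ± 0.769 TPM in KO (SD, n = 3; adjusted p = 0.00303 in the quasi-likelihood test across all genes) and Bcl2l13 rose as well, with the values given below. No values were at hand for Ggnbp1, Gm45808 or D630008O14Rik, the neighbours of Bak1, Bax and Bcl2. The values of Bak1, Bad, Bid, Bax and Bcl2 are uncertain to the extent that reads of such neighbours entered them, which was not tested.

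Because TPM is scaled by length, levels can be set side by side between members. In WT the order was Bax (187 TPM), Mcl1 (144), Bcl2l1 (124), Bak1 (103), Bid (59.0), Bad (45.8), Bcl2l11 (26.8), Bbc3 (12.3) and Bcl2 (10.8), as means over 3 libraries, and no neighbours in that order overlapped. In KO the order became Bax (292 TPM), Bcl2l1 (162), Bak1 (160), Mcl1 (154), Bid (77.0), Bad (44.6), Bcl2l11 (28.6), Bbc3 (22.2) and Bcl2 (7.91). There the libraries of Bak1 overlapped with those of both Bcl2l1 and Mcl1, while all other neighbours were separate. Mcl1 was thus above Bcl2l1 in every WT library, with a ratio of 1.16, 1.16 and 1.14, and below it in every KO library, with a ratio of 0.974, 0.919 and 0.948.

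Summed over the measured members of each class, pro-survival transcripts were at 279 ± 8.70 TPM in WT and 324 ± 6.67 TPM in KO (SD, n = 3), 1.16 times the WT level. Effector transcripts were at 290 ± 2.07 TPM in WT and 452 ± 11.8 TPM in KO, 1.56 times the WT level. BH3-only transcripts, without Pmaip1, were at 144 ± 2.04 and 172 ± 7.86 TPM, 1.198 times the WT level. Bok, an effector relative outside the members, was as abundant as Bak1 in WT and lower in KO. With Bok added, an alternative chosen after seeing the data, effector transcripts were at 387 ± 2.42 TPM in WT and 518 ± 14.9 TPM in KO, 1.34 times the WT level. The sums are descriptions without a test, and with 3 libraries against 3 an exact permutation test could not go below 0.1.

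The ratio of effector to pro-survival transcripts was 1.05, 1.07 and 0.998 in WT and reached 1.39, 1.42 and 1.38 in KO. The ratio of Bax to Bcl2, a common index of this balance, was 17.4, 17.6 and 16.8 in WT. In KO it was 38.6, 37.6 and 35.0, or 2.15 times as high. Bcl2 made up 3.88% of pro-survival transcripts in WT and 2.44% in KO, so the Bax to Bcl2 ratio leaves out most of that class. Both ratios were separate between groups. With Bok among the effectors, the effector to pro-survival ratio was 1.39 ± 0.034 in WT and 1.60 ± 0.033 in KO, 1.153 times the WT level, and the groups remained separate. BH3-only over pro-survival transcripts, by contrast, were at 0.516 ± 0.022 in WT and 0.532 ± 0.015 in KO, and these groups overlapped. These ratios compare transcripts and do not measure proteins.

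**Figure D3:**
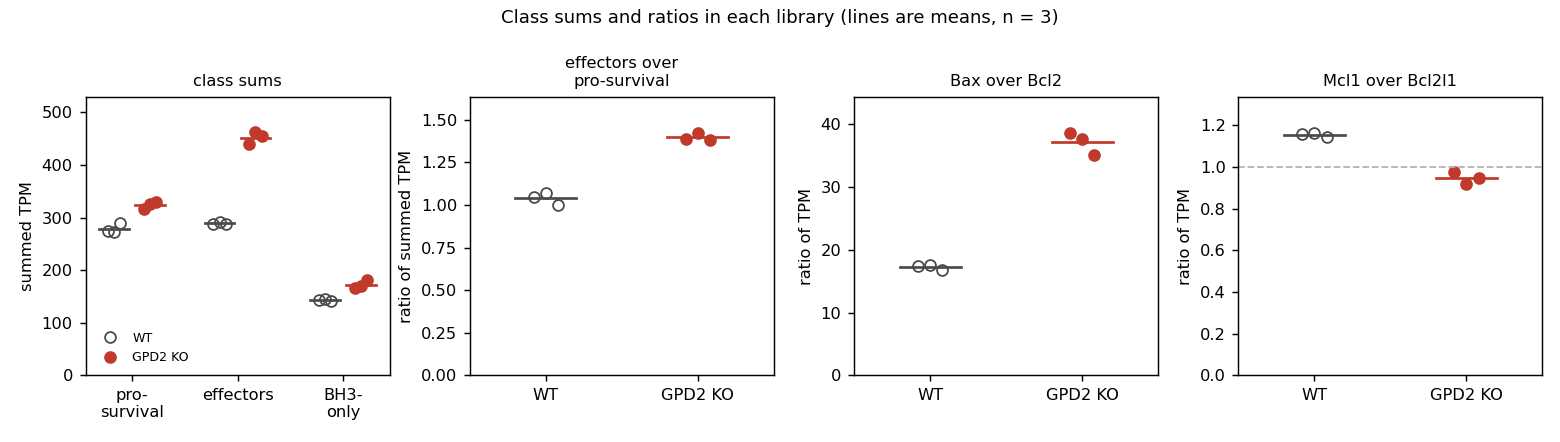
Summed TPM of the 3 classes and 3 ratios of TPM in each library, with open circles for WT, filled circles for GPD2 KO and lines at the means (n = 3 each); all axes start at 0. Among the sums of the 3 classes, the effector sum stood apart most, and Mcl1 over Bcl2l1 crossed the dashed line of equal level.

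Within the pro-survival class, Bcl2 made up 3.88% ± 0.12 of the transcripts in WT and 2.44% ± 0.15 in KO (SD, n = 3). Bcl2l1 went from 44.6% ± 0.29 to 50.1% ± 0.69 and Mcl1 from 51.5% ± 0.17 to 47.5% ± 0.74. Bcl2 was therefore a small share of the class in both groups, and its fall moved the class sum little. Within the BH3-only class, Bbc3 went from 8.55% ± 0.76 to 12.9% ± 0.49, Bid from 41.0% ± 0.29 to 44.7% ± 0.65 and Bad from 31.8% ± 2.0 to 25.9% ± 0.64.

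The promoters of Bax and Bcl2 are shown because these members moved apart. Each window holds the 250 bases before the annotated start, 5′ to 3′ on the gene's strand, from RefSeq (GRCm38.p6). Capitals mark GC boxes (GGGCGG on either strand) and, in Bax, the p53 decamer and the E box (CACGTG).
Bax: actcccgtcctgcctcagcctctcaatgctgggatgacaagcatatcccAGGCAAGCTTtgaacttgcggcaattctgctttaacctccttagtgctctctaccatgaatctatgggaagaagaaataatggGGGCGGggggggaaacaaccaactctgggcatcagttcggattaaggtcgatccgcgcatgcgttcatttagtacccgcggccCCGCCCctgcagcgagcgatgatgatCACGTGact
Bcl2: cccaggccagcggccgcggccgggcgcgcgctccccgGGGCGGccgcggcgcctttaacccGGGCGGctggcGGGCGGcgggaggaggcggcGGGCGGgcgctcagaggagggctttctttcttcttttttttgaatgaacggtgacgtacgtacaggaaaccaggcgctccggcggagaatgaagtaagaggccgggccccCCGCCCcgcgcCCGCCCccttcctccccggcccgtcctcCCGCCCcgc
The Bax window (chr7:45466899-45467148, minus strand) is 54.0% GC and holds 2 GC boxes, 1 match to the p53 decamer beginning 201 bases before the start, and 1 E box beginning 9 bases before it. The Bcl2 window (chr1:106714291-106714540, minus strand) is 74.8% GC and holds 7 GC boxes. None of these matches overlap each other. Over all 32851 RefSeq windows of this length, whose median GC content was 52.4%, 32.7% held a GC box, 6.0% the E box and 7.1% the p53 decamer. Promoter windows were at hand for all 9 members (15 windows, since some genes have several starts). A GC box was in 10 of these 15 windows, from 7 of the 9 members, the exceptions being Bak1 and Bcl2l1. The shares over all windows count single windows, so they are not a background for counts of members with several windows. The p53 decamer was in a window of Bax alone among the members, and the E box in windows of Bax and Bbc3. The FOXO site (GTAAACA, in 3.2% of all windows) was in windows of Bcl2l11 and Bbc3, a CCAAT box (CCAAT, 33.8%) in windows of Bcl2l11, Bbc3 and Bad, TGACG (17.8%) in windows of Bcl2 and Bbc3, and the E2F site (GCGCGAAA, 0.256%) in a window of Bcl2l1. TATAAA (12.4%), the AP-1 site (TGANTCA, 6.7%), the ATF4 element (TGATGNAA, 3.5%) and the GAS element (TTCNNNGAA, 7.0%) were in none of the 15 windows. All motifs were searched on both strands, and a match describes letters, not binding.

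Other BCL2-related genes outside the 9 were mixed: 9 were tested, 3 were higher, 4 lower and 2 did not pass, with a median log2 fold change of 0.20. The share that passed was 77.8%, beside 66.8% of all tested genes (33.5% higher and 33.3% lower). Bok, an effector relative of Bax and Bak1, went from 97.2 ± 4.27 to 65.8 ± 3.44 TPM, a log2 fold change of -0.56 (SD, n = 3; adjusted p = 1.60e-05, quasi-likelihood test across all genes), the opposite direction to Bax and Bak1. Bcl2l2, the pro-survival gene of BCL-W, had a log2 fold change of -0.22 (adjusted p = 0.0170) from 22.9 TPM in WT, above Bcl2, with overlapping groups, and its call was lost in the quasi-likelihood test without WT replicate 2 (adjusted p = 0.0671), KO replicate 2 (0.0579) or KO replicate 3 (0.0513). The mitophagy receptor gene Bnip3l fell by 0.69 (adjusted p = 1.32e-05) and Becn1, an autophagy gene with a BH3 region, fell by 0.30 (adjusted p = 5.43e-05). Bnip3, the paralog of Bnip3l, had a log2 fold change of 0.26 (adjusted p = 0.0310) with overlapping groups, and its call was lost in DESeq2 (adjusted p = 0.0670) and in the quasi-likelihood test without WT replicate 2 (0.104), WT replicate 3 (0.0736) or KO replicate 1 (0.123). Bcl2l13 rose by 0.32 from 19.9 to 24.8 TPM (adjusted p = 4.05e-05, quasi-likelihood test). Bcl2l15 was also called higher (1.84, adjusted p = 0.00443), on no more than 34 counts in any library, and lost this call in limma on log2(TPM + 0.1) (adjusted p = 0.0671). Bcl2l12 (0.20, adjusted p = 0.142) and the BH3-only gene Bmf (0.21, adjusted p = 0.299) did not pass.

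Downstream of the mitochondria, 17 apoptosome and caspase genes were tested. Of these, 6 were higher, 7 lower and 4 did not pass, with a median of -0.05. The share that passed was 76.5%, beside 66.8% of all tested genes. Casp6, an executioner caspase gene, rose from 28.3 ± 1.77 to 136 ± 10.5 TPM (SD, n = 3; log2 fold change 2.27, adjusted p = 5.80e-09, quasi-likelihood test across all genes). Casp8, the initiator caspase that cleaves BID, had a log2 fold change of -0.55 (adjusted p = 1.21e-05), and Parp1, a caspase substrate, of -0.36 (adjusted p = 4.63e-05).

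Among inhibitor of apoptosis genes and their antagonists, 3 of 11 were higher, 5 lower and 3 did not pass, with a median of -0.10. The share that passed was 72.7%, beside 66.8% of all tested genes. Xiap, whose protein binds caspases directly, fell from 53.7 ± 0.440 to 34.5 ± 0.601 TPM (log2 fold change -0.64, adjusted p = 4.62e-07, quasi-likelihood test across all genes; SD, n = 3), and Xaf1, known as an antagonist of XIAP, rose from 2.34 ± 0.097 to 24.4 ± 1.23 TPM (3.36, adjusted p = 7.58e-10). Naip2 (-0.65) and Naip5 (-1.73), which are near copies whose reads can be split between them, were lower, at adjusted p = 2.59e-05 and 3.02e-05. Of 16 tested death receptor and adaptor genes, 7 were higher, 3 lower and 6 did not pass (62.5% passed), with a median of 0.11. The receptor gene Fas rose from 0.724 ± 0.11 to 5.60 ± 0.679 TPM (2.94, adjusted p = 6.85e-07) and the TRAIL gene Tnfsf10 from 0.183 ± 0.070 to 1.06 ± 0.006 TPM (2.52, adjusted p = 1.28e-05), both from low levels. Daxx (0.91) and Tnfrsf21 (0.44) were higher too, at adjusted p = 2.72e-07 and 1.04e-05.

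Genes known to act on the family members were counted in 3 lists. Of 24 tested genes of p53 and its targets other than the members, 9 were higher, 5 lower and 10 did not pass, with a median of 0.11. The share that passed was 58.3%, beside 66.8% of all tested genes. Aen (log2 fold change 1.04, adjusted p = 2.90e-08), Plk2 (1.44, adjusted p = 3.57e-08) and Tigar (0.59, adjusted p = 3.82e-06) rose and Ccng1 (-0.80, adjusted p = 1.05e-06) fell in the quasi-likelihood test. Named after their values were seen, the p53 gene Trp53 fell by 0.20 (adjusted p = 0.00534), while its targets Cdkn1a (0.01, adjusted p = 0.898) and Mdm2 (0.13, adjusted p = 0.101) did not pass.

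Of 13 transcription regulators of BH3-only genes, 7 were higher, 2 lower and 4 did not pass, with a median of 0.26. The share that passed was 69.2%, beside 66.8% of all tested genes. The stress factor gene Ddit3, which encodes CHOP, rose from 11.8 ± 0.452 to 28.2 ± 2.49 TPM (1.26, adjusted p = 1.54e-06, quasi-likelihood test across all genes; SD, n = 3), and Cebpb rose by 0.79 (adjusted p = 2.71e-06). Egr1 fell from 129 ± 2.60 to 47.0 ± 0.398 TPM (-1.45, adjusted p = 2.38e-09), and the E2F partner Tfdp1 fell by 0.48 (adjusted p = 3.09e-06). Of 29 genes that modify BCL2 family proteins or control their turnover, 15 were higher, 8 lower and 6 did not pass, with a median of 0.17. The share that passed was 79.3%. Pim1 and Pim2, kinases that phosphorylate BAD, rose by 1.52 and 0.99 (adjusted p = 3.81e-07 and 3.64e-06), and Mapk9 and the 14-3-3 gene Ywhae fell by 0.68 and 0.45 (adjusted p = 4.62e-07 and 1.57e-06).

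**Figure D4:**
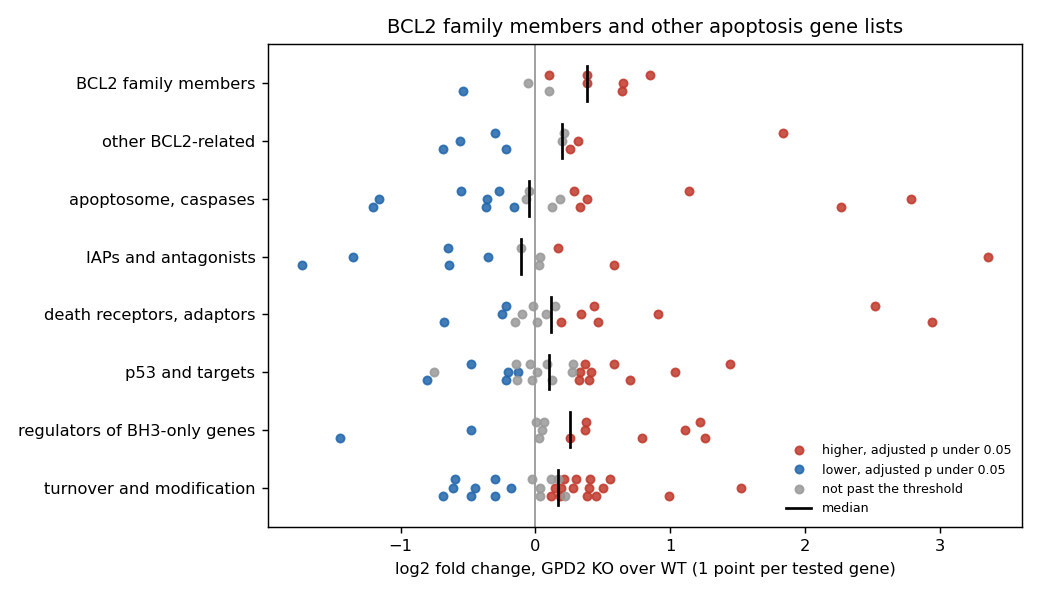
Log2 fold change (GPD2 KO over WT) of each tested gene in 8 lists, 1 point a gene, with black bars at the list medians; red points were higher and blue lower at an adjusted p of 0.05, and grey points did not pass. The 9 family members spread less widely than the caspase (17 genes), IAP (11) and death receptor (16) lists. Each of these lists holds genes with log2 fold changes over 2, but also more genes, so the ranges are not compared at equal size.

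The fold changes of the members were also compared over 13 alternatives that gave a fold change: other scalings, tools, units and filters, the replicate block and the leaving out of each library. No member changed direction. Bcl2 ranged from -0.56 to -0.41, Bcl2l1 from 0.35 to 0.42, Bax from 0.62 to 0.68, Bak1 from 0.59 to 0.66, Bid from 0.35 to 0.41 and Bbc3 from 0.78 to 0.90 on the log2 scale. These 6 members passed the adjusted p of 0.05 in each of the 13, and Bad and Bcl2l11 in none.

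**Figure D5:**
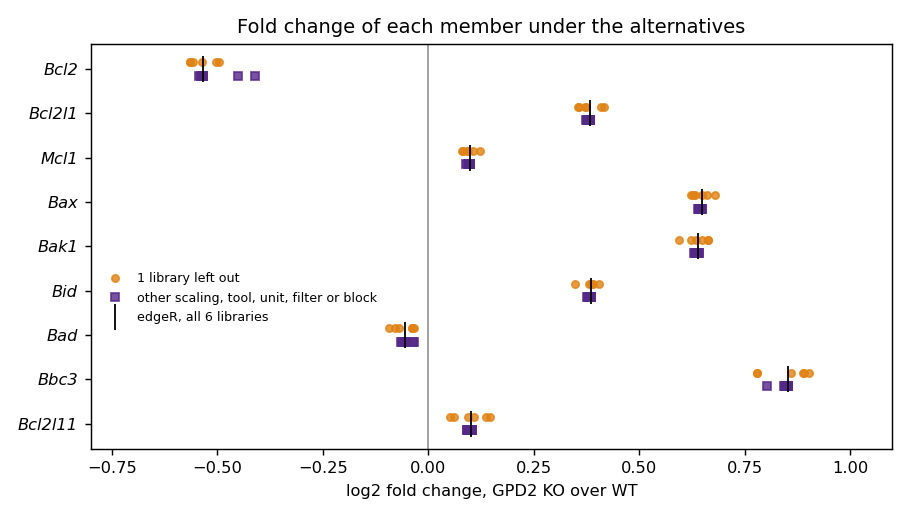
Log2 fold change (GPD2 KO over WT) of each member with all 6 libraries (black bar), with 1 library left out (orange circles) and under other scalings, tools, units, filters or the replicate block (purple squares). Points of Bcl2 stayed below 0 and those of the 6 higher members above it. The 2 squares with a smaller fall of Bcl2 are the limma fits, which used TPM in place of counts.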

How the data were processed

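RNA-seq libraries of 4T1 WT (n = 3) and 4T1 GPD2 KO (n = 3) cells were compared. Per the labels and the methods of the study, the authors used Trimmomatic 0.38 for trimming, HISAT2 2.1.0 for alignment (mm10) and StringTie 1.3.4d for assembly, and deposited 1 table with a read count, an FPKM value and a TPM value per gene and library. The sources used here do not state how reads were counted or with which strand setting. Deposited columns with fold changes and p-values of the authors' own comparison and 6 further columns of values per library were not used. Counts were filtered with filterByExpr (minimum count 10), scaled by TMM and tested in edgeR 4.0.16 (R 4.3.3) by the two-sided quasi-likelihood test, with Benjamini-Hochberg adjustment over all 12106 tested genes; the fitting was tested on simulated data. The study's own selection was repeated with the edgeR exact test. TPM values as deposited were used for levels, sums and ratios, and deposited FPKM values for a second set of sums. Libraries of 51186527 to 59846170 counts kept counting error small; replicates differed by more than sampling noise. Alternatives used DESeq2 1.42.0, limma 3.58.1 on log2(TPM + 1) or log2(TPM + 0.1), other scalings, no filter, a replicate block and each library left out. Named genes were the members, all other BCL2-related genes in the table, up to 4 tested genes with the smallest adjusted p in each other list, and Gpd2; exceptions are marked, and 1 gene that the rule names is not reported here. Members and lists were chosen with earlier results of these data known. Promoters came from RefSeq (GRCm38.p6, the assembly of mm10) and coding bases and exons from GENCODE vM21.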

Additional observations from a re-analysis of the deposited data

How the results depend on the processing

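Requiring a fold of at least 2 beside the adjusted p of 0.05 left 1015 genes (453 higher, 562 lower) and 0 family members, 0 in either direction; without the fold, an unadjusted quasi-likelihood p under 0.05 took 7 members (69.7% of all tested genes), DESeq2 7 (66.5%) and an unadjusted exact test p 6, all but Mcl1 (64.6%). The selection used in the study gave 1046 genes (467 higher, 579 lower) and again 0 members in either direction, so the members' calls rest on a threshold without a minimum fold. Leaving out 1 library at a time gave 7433 to 7783 changed genes and 6 to 7 called members, the difference being Mcl1. With the replicate number as a block, 7974 genes and the same 7 members passed. After each gene's group mean of log2 CPM was taken off, WT and KO libraries of the same number correlated at 0.156, 0.119 and -0.0411. Those of different number correlated at -0.302 to 0.185, so the numbers were not taken to pair the libraries. The class sums kept their direction with FPKM in place of TPM (effectors 1.55 times the WT level). FPKM and TPM gave the same ratios within each library, so this is not a separate check. After seeing the data, Bok was added to the effectors, which took the KO over WT ratio of the effector sum from 1.56 to 1.34 and that of effectors over pro-survival from 1.34 to 1.153 (1.18 with Bcl2l2 among the pro-survival genes as well). No member's fold change reversed in the alternatives run. Over all genes, the near even split of 4051 higher and 4034 lower calls tipped to 3964 and 4129 with total count scaling, 3963 and 4004 in limma with a pseudocount of 1, and 3995 and 4075 with no filter. Single-member ratios and the order of levels had no alternative but the deposited FPKM, which gives the same ratios. Transcripts only were measured, in 1 KO line, with 3 libraries a group, and genes under the filter or not in the table were not analysed here.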
